A study of Oryctolagus cuniculus with 3 samples.

Results

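HADHA, HADHB, ACADM, FABP5 and ANGPTL4 are genes of fatty acid oxidation and lipid handling. They were chosen by name, with earlier results of the same arrays known. A probe was assigned to a gene through a symbol, a RefSeq transcript or a gene identifier in the array's annotation. Together 9 probes of these 5 genes were found among the 22839 probes of the deposited value table, of which 14417 carry a symbol (6776 genes). FABP5 has 5 probes and each of the other genes has 1.

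Rabbit morulae were recovered on day 3 of development and either slow-frozen or vitrified, that is, cooled gradually or, in a concentrated cryoprotectant, plunged into liquid nitrogen so that a glass forms in place of ice. They were then transferred to recipient does and collected on day 6, 3 days after transfer, as late blastocysts. Each of 3 Agilent rabbit arrays carried total RNA of frozen embryos in one channel and of vitrified embryos in the other. The frozen embryos were labelled with Cy5 on replicates 1 and 3 and with Cy3 on replicate 2, the vitrified embryos with the other dye. All groups share the freezing or vitrification, the warming and the transfer; fresh embryos were not analysed here. The strain, the slow-freezing steps and the number of embryos behind each RNA sample are not given in the sources used here, and the labels call the arrays biological replicates. A value is the log2 ratio of frozen over vitrified embryos, above 0 where frozen embryos gave the brighter signal.

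Fatty acids are burned in mitochondria by beta-oxidation, a cycle that shortens the chain and yields acetyl-CoA and reduced electron carriers. The mitochondrial trifunctional protein carries out the later steps of the cycle on long chains: HADHA, its alpha subunit, holds the hydratase and the 3-hydroxyacyl-CoA dehydrogenase, and HADHB, its beta subunit, holds the thiolase. ACADM, the medium-chain acyl-CoA dehydrogenase, opens the cycle for shorter chains. FABP5 carries fatty acids through the cytosol, and ANGPTL4 is a secreted inhibitor of lipoprotein lipase, the enzyme that frees fatty acids from lipoproteins. Mammalian blastocysts are known to use fatty acids as an energy source beside glucose, pyruvate and amino acids.

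The probes are shown because the number of separate sequences decides how much each gene's value rests on. Each is 60 bases, written 5′ to 3′ as the scanner files give it. Capitals mark the 54 bases that all 5 FABP5 probes share. FABP5 probes are numbered from the brightest to the dimmest.
HADHA: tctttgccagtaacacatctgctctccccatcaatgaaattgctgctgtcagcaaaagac
HADHB: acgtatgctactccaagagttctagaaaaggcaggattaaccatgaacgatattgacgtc
ACADM: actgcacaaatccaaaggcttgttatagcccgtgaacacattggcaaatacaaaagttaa
ANGPTL4: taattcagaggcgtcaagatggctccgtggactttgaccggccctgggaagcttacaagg
FABP5 probe 1: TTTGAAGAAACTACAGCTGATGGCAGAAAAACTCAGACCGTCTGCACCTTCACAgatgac
FABP5 probe 2: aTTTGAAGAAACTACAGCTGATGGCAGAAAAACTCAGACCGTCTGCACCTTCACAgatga
FABP5 probe 3: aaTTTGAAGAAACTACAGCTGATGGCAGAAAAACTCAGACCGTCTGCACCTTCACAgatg
FABP5 probe 4: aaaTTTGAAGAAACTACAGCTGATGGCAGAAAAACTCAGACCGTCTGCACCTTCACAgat
FABP5 probe 5: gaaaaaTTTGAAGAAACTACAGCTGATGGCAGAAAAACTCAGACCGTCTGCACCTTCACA

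The 5 FABP5 probes lie within 6 bases of each other, so they read the same stretch of the transcript and are not separate measurements of it. The array's design places them at bases 266 to 272 of the transcript. There the HADHA probe (LOC100355022) starts at base 1411, that of HADHB (LOC100355110) at 1068, that of ACADM (LOC100347504) at 1242 and that of ANGPTL4 (LOC100339191) at 691. On the rabbit build of that design, which the files do not name, the HADHA probe maps to chr2:159705597-159705656 on the plus strand. The HADHB probe maps to chr2:159629634-159629693 on the minus strand and the ACADM probe to chr13:89878132-89878191 on the minus strand. The FABP5 probes (LOC100345743) begin at chr3:96999002 and span 395 bases each, more than their length, and the ANGPTL4 probe is listed as unmapped. No annotation of that build was used here, so exon and UTR are not stated. In RefSeq's annotation of the rabbit assembly mOryCun1.1, HADHA and HADHB are neighbours on chromosome 2, with 0 genes listed between them. The HADHB probe is annotated to 2 RefSeq transcripts, XM_002709975 of HADHB and XM_002714521, which that table does not name, so its signal may include a second, near-identical transcript. The GC content of the member probes ran from 38.3% for ACADM to 55% for ANGPTL4, against a median of 43.3% over the table.

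HADHA and HADHB moved together on every array, and both stood on the vitrified side on replicate 1 and on the frozen side on replicates 2 and 3. HADHA had log2 ratios of -0.93, 0.73 and 0.83 on replicates 1, 2 and 3. HADHB had -0.75, 0.83 and 0.78. Each value lay beyond 1.5-fold, on opposite sides of 0, so the means, 0.21 ± 0.99 for HADHA and 0.29 ± 0.90 for HADHB (SD, n = 3), describe no array. Within an array the log2 ratio of HADHA minus that of HADHB was -0.17, -0.10 and 0.06, with a mean of -0.07 ± 0.12 (SD, n = 3). For scale, in 840 transcripts whose 2 probes lie 100 or more bases apart the absolute difference between both probes' log2 ratios had a median of 0.15, 0.12 and 0.14 on replicates 1, 2 and 3. The subunits of the complex thus lay about as close to each other as separate probes of 1 transcript do. An SD of 3 differences is itself imprecise, and no correlation is given over 3 arrays.

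**Figure D1:**
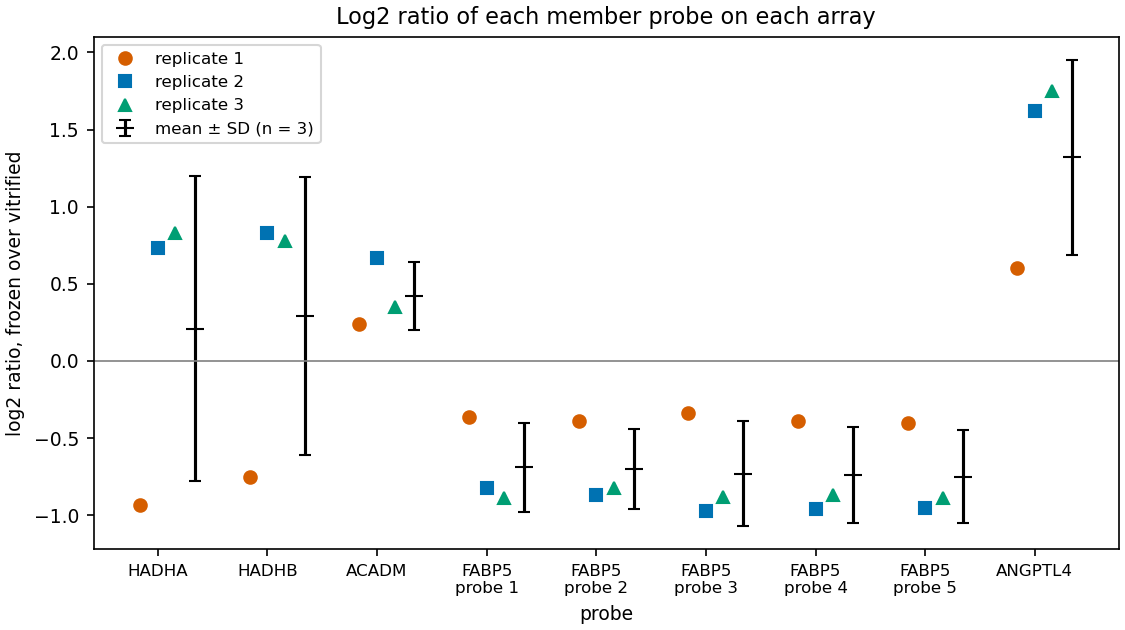
Log2 ratio of frozen over vitrified embryos (vertical axis) for each of the 9 probes (horizontal axis) on replicates 1, 2 and 3, with the mean ± SD over the 3 arrays in black. HADHA and HADHB lie at -0.93 and -0.75 on replicate 1 and between 0.73 and 0.83 on replicates 2 and 3, while ACADM, FABP5 and ANGPTL4 keep 1 sign.

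The processed signals of both channels show the same crossing. On replicate 1 HADHA had 2827 intensity units in frozen embryos and 5372 in vitrified embryos. On replicate 3 it had 4359 in frozen embryos and 2444 in vitrified embryos. HADHB had 5272 in frozen embryos and 8885 in vitrified embryos on replicate 1, and 7585 in frozen embryos and 4422 in vitrified embryos on replicate 3. Replicates 1 and 3 carry the dyes the same way round, with frozen embryos in Cy5, so the opposite signs occurred within one dye orientation. After normexp background correction and loess normalization of the raw signals, HADHA had -0.87 and 0.78 and HADHB -0.81 and 0.68 on replicates 1 and 3. The direction of the table's column for replicate 2 is likely, not stated. With its sign turned, HADHA and HADHB had -0.73 and -0.83 on that array and still lay on the same side on all 3 arrays, with means of -0.27 each.

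**Figure D2:**
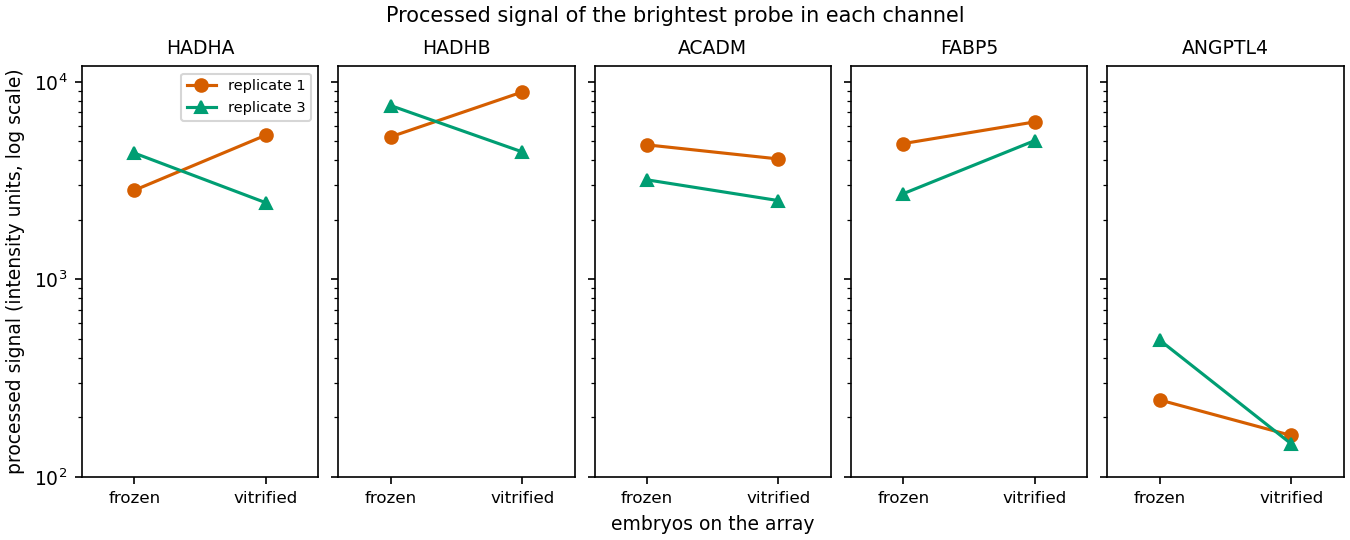
Processed signal (vertical axis, log scale) of the brightest probe of each gene in frozen embryos and in vitrified embryos on replicates 1 and 3, the arrays with scanner files. The lines of HADHA and HADHB cross between the arrays, those of ACADM, FABP5 and ANGPTL4 slope the same way on both.

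Values this far out were uncommon on each array. HADHA stood at the 2.9th percentile of all probes on replicate 1 and at the 98.5th and 99.1st on replicates 2 and 3, and HADHB at the 5.7th, 99.1st and 98.8th. Lower on replicate 1 and higher on replicates 2 and 3, each by at least 1.5-fold, were 57 of 22839 probes (0.25%), and by brightest probe 17 of 6776 genes (0.251%). Without the size, the sign pattern itself was common, at 21.8% of probes. Turning replicate 2 changes the name of the pattern, to lower on replicates 1 and 2 and higher on replicate 3, and not these counts. These shares are a description, since the genes were chosen with their values known. By the distance of the 3 log2 ratios, HADHA was the 3rd nearest of 6775 other genes to HADHB, after JUN (distance 0.17), a transcription factor, and CLCN2 (0.18), a chloride channel, and HADHB was the 5th nearest to HADHA (distance 0.21). Nearest to HADHA were KDM2A (0.18), a histone demethylase, GOLGA7B (0.19) and RDH12 (0.19), a retinol dehydrogenase. These 3 had low signals, at means of 6.29, 5.76 and 5.69 on the log2 scale, against 11.80 for HADHA. Distances over 3 arrays say nothing of shared function.

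Other measures changed sides between the same arrays. All 3 measured blood markers of 7 listed ran against HADHA and HADHB. The beta globin gene HBB2 had 2.62, -3.77 and -3.59 on replicates 1, 2 and 3, the alpha globin gene HBA had 1.88, -2.23 and -1.79, and ALAS2, an enzyme of haem synthesis in red cells, had 0.34, -1.73 and -1.21. The summed signal of the blood markers was 35511 in frozen embryos and 6467 in vitrified embryos on replicate 1, and 6455 in frozen embryos and 56631 in vitrified embryos on replicate 3. The leukocyte markers PTPRC, S100A8 and S100A9 had no named probe in the table. The hypoblast list, the layer that gives the yolk sac lining, had medians of 0.12, -1.10 and -1.56 over 6 of 11 genes, with summed signals of 2752 in frozen embryos and 2049 in vitrified embryos on replicate 1, and 2249 in frozen embryos and 6779 in vitrified embryos on replicate 3. Of these 6 genes APOA1, RBP4 and DKK1 changed sides, while GATA4, APOB and CER1 were below 0 on all 3 arrays. The 3′ signal of transcripts, the log2 ratio at the 3′-most probe minus that at the 5′-most over 213 transcripts whose probes lie 500 or more bases apart, had medians of 0.24, -0.13 and -0.06. The part of blood cells, of the hypoblast and of RNA quality in the values of HADHA and HADHB was not tested. In such bulk samples fewer cells of a type and less RNA per cell cannot be told apart.

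ACADM was higher in frozen embryos on all 3 arrays. Its log2 ratios were 0.24, 0.67 and 0.35 on replicates 1, 2 and 3, and their mean was 0.42 ± 0.22 (SD, n = 3), which is 1.34-fold. The signal was 4798 in frozen embryos and 4071 in vitrified embryos on replicate 1, and 3191 in frozen embryos and 2505 in vitrified embryos on replicate 3. The enzyme at the start of the medium-chain cycle thus did not share the reversal of HADHA and HADHB on replicate 1. Its nearest genes by distance were RFESD (0.04), KEAP1 (0.14), the partner that holds the antioxidant regulator NRF2 in check, and C2CD5 (0.15). Of all probes 22.5% had 1 sign on all 3 arrays, and 11.7% were higher in frozen embryos on all 3, so that its sign alone is common. The gene rests on 1 probe, and with the sign of replicate 2 turned its mean was -0.03.

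FABP5 was lower in frozen embryos on every array and every probe. Its brightest probe had -0.36, -0.82 and -0.89 on replicates 1, 2 and 3, with a mean of -0.69 ± 0.29 (SD, n = 3), a 1.61-fold lower signal. Over the 5 overlapping probes the means ran from -0.75 to -0.69, and their values from -0.40 to -0.34 on replicate 1, -0.97 to -0.82 on replicate 2 and -0.89 to -0.82 on replicate 3. The spread between overlapping probes was thus smaller than that between arrays, where replicate 1 lay nearer to 0. The brightest probe had 4872 units in frozen embryos and 6272 in vitrified embryos on replicate 1, and 2718 in frozen embryos and 5045 in vitrified embryos on replicate 3. Nearest to it was SLC1A5 (distance 0.06), the glutamine carrier, followed by INPP4B (0.13), a phosphoinositide phosphatase, and DZIP1 (0.14). Among all probes 1.24% were lower on all 3 arrays with a mean of at least 1.5-fold. If replicate 2 is read the other way round, the mean of FABP5 is -0.15.

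ANGPTL4 had the mean furthest from 0 of the 5 genes with the table read as deposited. Its log2 ratios were 0.60, 1.62 and 1.75 on replicates 1, 2 and 3, and their mean was 1.32 ± 0.63 (SD, n = 3), which is 2.50-fold toward frozen embryos. It stood at the 93.1st, 99.9th and 99.9th percentile of all probes. The probe was the dimmest of the 9, with 245 units in frozen embryos and 162 in vitrified embryos on replicate 1, and 492 in frozen embryos and 147 in vitrified embryos on replicate 3. The vitrified signals of both arrays thus lay close together, while the frozen signals differed. Among all probes 0.648% were higher on all 3 arrays with a mean of at least 1.5-fold. After normexp and loess the values were 0.16 and 1.38 on replicates 1 and 3, so the size on replicate 1 depended on the processing, background correction and normalization having been changed together. With the sign of replicate 2 turned the mean was 0.24, nearer to 0 than those of HADHA and HADHB, -0.27 each. The nearest genes lay further off than for the other members: LOC100349021 (distance 0.58), EMP1 (0.61), a membrane protein of epithelia, and FBP2 (0.78), a fructose bisphosphatase. ANGPTL4 is known as a target of PPAR receptors, of hypoxia and of glucocorticoids. HILPDA, ADM and DDIT4, other genes known to be induced by hypoxia, had -0.15 ± 0.13, 0.22 ± 0.33 and -0.94 ± 0.59 (SD, n = 3). The list of genes inducible by hypoxia or glucocorticoids, ANGPTL4 included, had a median of 0.13 over 8 measured genes. Of these 8 genes 5 had a mean above 0, where 46.9% of all genes did. A part of hypoxia in the values of ANGPTL4 was not tested.

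In limma's moderated test of the log2 ratios against 0, no probe passed: after Benjamini-Hochberg correction 0 of 22839 (0%) were under 0.05, and the smallest adjusted p was 0.55. Without adjustment 1020 probes (4.47%) had p under 0.05, of which 421 (1.84%) were higher and 599 (2.62%) lower in frozen embryos. Without replicate 1 the test passed 796 probes, without replicate 2 or 3 it passed 0. For the members no p is given, since their values chose them. The number of arrays limits the precision.

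Around the members stand 13 lists, which leave 101 measured genes of 200 once the members are taken out. All are lists of lipid genes but 1, which holds genes induced by hypoxia or glucocorticoids, such as DDIT4 and ADM. Of the 101 genes, 0 passed the test after adjustment, with a smallest adjusted p of 0.81. Without adjustment 5 higher and 4 lower genes had p under 0.05, DDIT4 among the lower ones. Over all 6776 genes 96 higher and 190 lower ones did, together 4.22%. The 101 genes had a median log2 ratio of 0.02, against -0.01 over all genes, and 19 were higher and 11 lower on all 3 arrays. Thus 29.7% had 1 sign, against 22.4% of all genes, of which 10.7% were higher and 11.7% lower. On replicates 1, 2 and 3 their medians were -0.05, 0.09 and 0.09, against -0.08, 0.04 and 0.02 over all genes. Without replicate 1, 3 of the 101 genes passed, against 3.49% of all probes: SLC25A20 was higher, ACSL5 and PPARG lower.

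The other genes of mitochondrial beta-oxidation mostly sat on the same sides as HADHA and HADHB. Of 11 measured genes 8 were below 0 on replicate 1, 10 above 0 on replicate 2 and 11 above 0 on replicate 3, with medians of -0.22, 0.27 and 0.15. Of all genes 58.1% were below 0 on replicate 1, and 56.6% and 53.5% above 0 on replicates 2 and 3, so the count on replicate 1 is near that background. Lower on replicate 1 and higher on both other arrays were 7 of them, where 25.2% of all genes were; with replicate 2 turned the same genes would be lower on replicates 1 and 2 and higher on replicate 3, at the same counts. ACAA2, the mitochondrial thiolase of shorter chains, had -0.72, 0.27 and 0.33, and ACADVL, which opens the cycle for very long chains, had -0.22, 0.49 and 0.57. ACAD9, a dehydrogenase that also serves the assembly of respiratory complex I, had -0.86, 0.24 and 0.03; these 3 genes were named after their values were seen. HADH, the dehydrogenase of shorter chains, resembled ACADM more, with 0.03, 0.58 and 0.52 and a mean of 0.38 ± 0.30. ACAT1, the thiolase of the last step and of ketone bodies, had 0.22 ± 0.22 (SD, n = 3), and its 4 probes ran from -0.08 to 0.43. The median over the means of these 11 genes was 0.07, and -0.05 with the sign of replicate 2 turned.

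**Figure D3:**
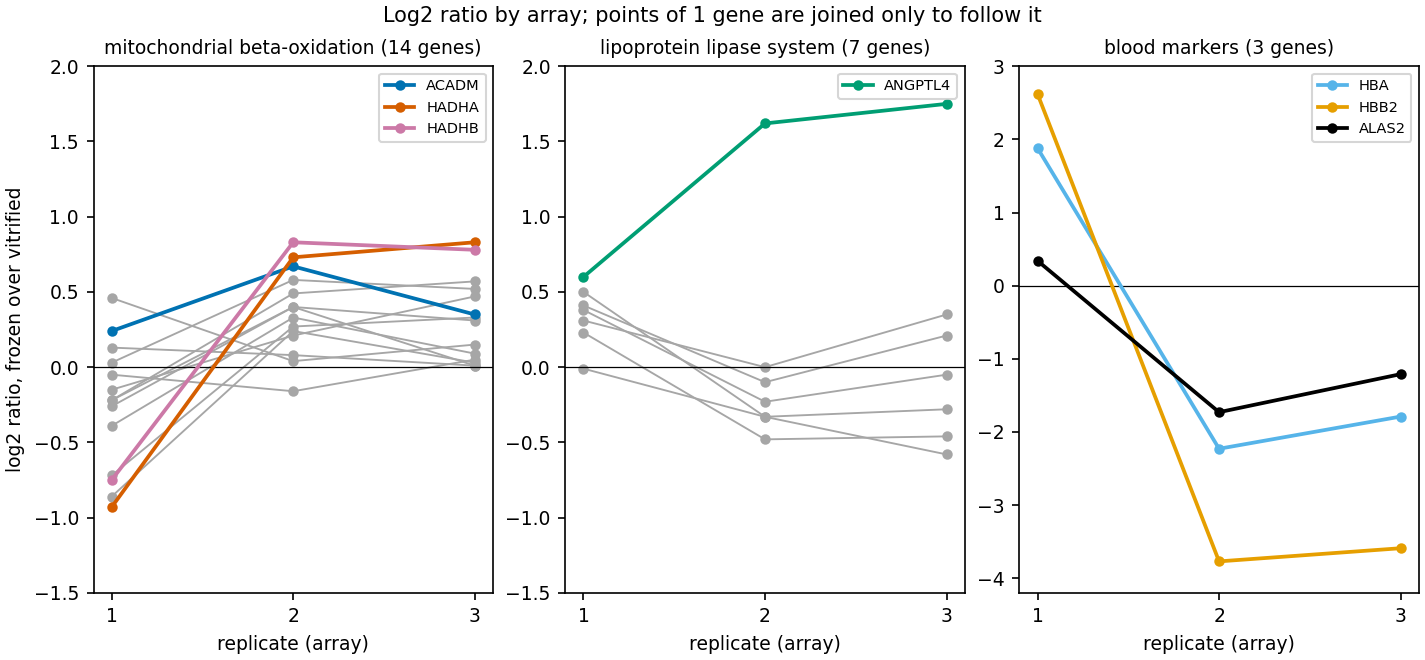
Log2 ratio of frozen over vitrified embryos (vertical axis) of each gene by array (horizontal axis) for mitochondrial beta-oxidation, the lipoprotein lipase system and blood markers; lines join the values of 1 gene. HADHA is the lowest beta-oxidation gene on replicate 1, with ACAD9 and then HADHB next to it, and both subunits are the highest on replicates 2 and 3, ANGPTL4 lies above the other lipase genes on every array as deposited, and the blood markers run the other way.

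The genes that bring fatty acids to the cycle differed among themselves. SLC25A20, the carnitine carrier of the inner mitochondrial membrane, had 0.05, 0.69 and 0.67, a mean of 0.47 ± 0.37, and CPT2, which returns the chain to coenzyme A inside the mitochondrion, had -0.26, 0.46 and 0.64 (0.28 ± 0.48; SD, n = 3). Among the acyl-CoA synthetases, which activate fatty acids, ACSL5 had -0.32, -1.15 and -1.13 (-0.87 ± 0.47), below 0 on all 3 arrays like FABP5, and its mean was below 0 on each of 3 probes. ACSS3 had 0.46 ± 0.21 and ACSL1 0.32 ± 0.15 (SD, n = 3). In peroxisomes, which shorten very long and branched chains, 8 of 9 genes had a mean above 0, where 46.9% of all genes did, among them PECR at 0.27 ± 0.20 and SCP2 at 0.19 ± 0.13. Of the 9 measured genes of fatty acid binding and uptake, ACBD5 had 0.24 ± 0.16 and SLC27A3 -0.21 ± 0.30, and the muscle and heart form FABP3, named after its values were seen, had -0.33, 0.57 and 0.17.

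The other 6 measured genes of the lipoprotein lipase system had means from -0.31 to 0.22. LPL, its target and named after its values were seen, had 0.50, -0.33 and -0.28. LIPG, the endothelial lipase, had -0.31 ± 0.28 and LRP8, a lipoprotein receptor, 0.22 ± 0.19 (SD, n = 3). The median of the system, ANGPTL4 included, was 0.38, -0.23 and -0.05 on replicates 1, 2 and 3. Adipocyte markers had 0 of 5 genes measured, and of the droplet list 4 genes were measured, with HILPDA at -0.15 ± 0.13 and FITM2 at 0.11 ± 0.13.

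The PPAR target list, which holds all 5 members, had a median of 0.22, with 10 of 12 genes at a mean above 0, where 46.9% of all genes were; 5 of these 12 are the members themselves, so the list is no independent evidence. TXNIP, a thioredoxin inhibitor, had 0.53 ± 0.24, though its 2 probes gave 0.07 and 0.53. Of the receptors, PPARD, to which FABP5 is known to deliver ligands, had 0.37 ± 0.18 (SD, n = 3), and PPARG, named after its values were seen, was above 0 on replicate 1, at 0.53, and below 0 on replicate 2, at -0.87, and on replicate 3. Both had low mean signals, 6.60 and 6.39 on the log2 scale. Other genes named here were dimmer still, among them TXNIP (6.19), PRKAB2 (6.18), DDIT4 (6.33), ADM (6.29) and SLC27A3 (6.05). So were the markers ALAS2 (6.29), HAND1 (5.60) and HOXA11 (5.39). PRKAB2, a subunit of the energy sensor AMPK, had -0.31 ± 0.22, though its 3 probes ran from -0.38 to 0.17.

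Genes that build and store lipid had medians near 0. Fatty acid synthesis and desaturation had -0.04 over 15 genes, with OXSM, a mitochondrial synthase, at 0.48 ± 0.19 and ME1, which supplies NADPH, at -0.47 ± 0.27; the 2 probes of ME1 gave -0.47 and 0.01. Triglyceride synthesis had -0.08 over 10 genes, with AGPAT4 at -0.49 ± 0.20 and MOGAT1 at 0.42 ± 0.33. Ketone body genes had a median of 0.00 over 4 genes, with BDH2 at 0.12 ± 0.23 (SD, n = 3). Of the 26 genes that the rule named from these lists, 5 changed the sign of their mean with replicate 2 turned: ADM, CPT2, HADH, HILPDA and SCP2.

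**Figure D4:**
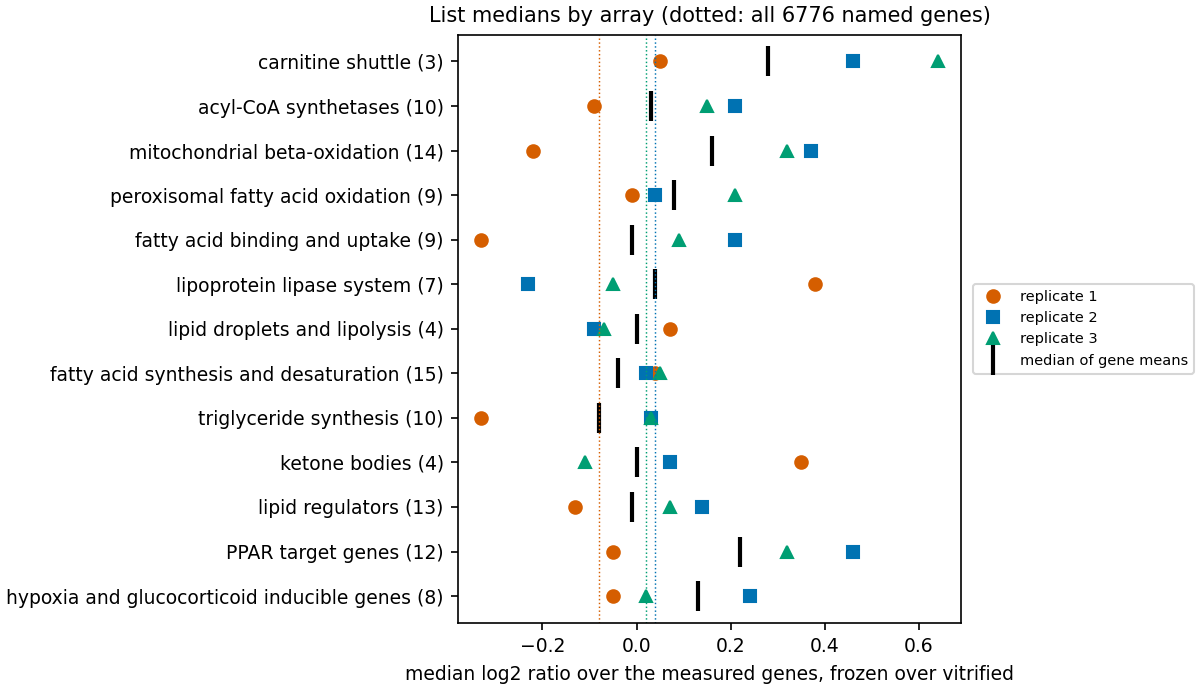
Median log2 ratio of frozen over vitrified embryos (horizontal axis) of each list around the members on replicates 1, 2 and 3. Black bars give the median of the gene means and brackets the number of measured genes. Dotted lines give the medians of all named genes. Mitochondrial beta-oxidation with the members stands at -0.22 on replicate 1 and at 0.37 and 0.32 on replicates 2 and 3, while the lipoprotein lipase system lies the other way.

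The cells of the blastocyst were represented by few markers. Trophoblast had 5 of 9 listed genes measured, with GATA3, a regulator of that layer, at 0.43 ± 0.42 and HAND1 at -0.28 ± 0.10. The trophoblast medians on replicates 1, 2 and 3 were -0.16, 0.26 and 0.33, on the same sides as HADHA and HADHB. Of its 5 genes 2 had these sides on all 3 arrays. Its summed signal was 13549 in frozen and 21068 in vitrified embryos on replicate 1, and 20882 and 20924 on replicate 3. A part of the trophoblast in the values of HADHA and HADHB was not tested. Epiblast had 2 of 8, with POU5F1, the pluripotency factor, at -0.96 ± 0.58 and LIN28A at -0.12 ± 0.21, and hypoblast 6 of 11, with APOB at -0.99 ± 0.82 and CER1 at -0.55 ± 0.40. Uterine tissue had 2 of 6, with SCGB1A1, uteroglobin, at -0.39 ± 0.45 and HOXA11 at -0.44 ± 0.51 (SD, n = 3). The means of the 10 SCGB1A1 probes ran from -1.05 to -0.33.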

How the data were processed

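Total RNA (100 ng per sample, per the labels' protocols) was measured on 3 arrays with 2 channels each. The submitters' processing notes name Agilent Feature Extraction, version 10.10.1.1. The deposited scanner files of replicates 1 and 3 give, per the file headers, raw intensity and processed intensity (background-subtracted, detrended and dye-normalized) per channel, a log10 ratio of red over green, and flags of 0 or 1. The deposited value table holds log2 ratios with direction and centring unstated. For replicates 1 and 3 they equalled log2 red over green, frozen over vitrified, within 2.8e-06; column medians were -0.015, 0.021 and 0.017. On replicate 2 the 10 spike-in probes correlated below -0.9 with replicates 1 and 3, whose own r was 0.99; spike-ins follow the dyes, so its direction is likely, not stated, to be frozen over vitrified. All 22839 non-control probes of the table passed the flag for signal over background in each channel on replicates 1 and 3, and 0 were saturated. The array itself has 43603 non-control probes, and how those of the table were chosen was not examined. These flags, and all shares and percentiles here, thus describe only the probes kept in the table. A gene is called measured where the table holds a probe named for it. The table has 0 other value columns.

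Each log2 ratio was tested against 0 with limma 3.58.1 in R 4.3.3 over all probes; Python 3.11.15 and pandas 2.3.3 joined the tables. A gene is given by its brightest probe. With 3 arrays, flipping signs exactly allows no 2-sided p below 0.25. Members, lists and tests were chosen with earlier results of these data known. Named genes are the members, from each list the 2 non-members with the smallest unadjusted p, and the 3 genes nearest to each member by Euclidean distance, and from each marker list the 2 with the smallest unadjusted p. One gene that this rule names is not reported here. The comparison of 2 probes per transcript was added after seeing the data. The test was tried on simulated arrays whose changes were the same on all 3 arrays. That setting lacks the reversals between arrays seen here, so it cannot show how the test fares with them. Alternatives left out each array, turned replicate 2, centred arrays, used normexp (offset 50) and loess, averaged a gene's probes, left out the dimmest 25% of probes, or changed the prior or covariate. Slide and replicate coincide.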

Additional observations from a re-analysis of the deposited data

How the results depend on the processing

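Leaving out 1 replicate at a time gave means of -0.10 to 0.78 for HADHA, 0.01 to 0.81 for HADHB, 0.29 to 0.51 for ACADM, -0.85 to -0.59 for FABP5 and 1.11 to 1.68 for ANGPTL4, and -0.14 to -0.02 for HADHA minus HADHB; the highest means of HADHA and HADHB were those without replicate 1. It gave 0 to 796 probes past the adjusted threshold, 796 being the count without replicate 1. Probes of 1 sign and at least 1.5-fold were 228 to 400 higher and 241 to 813 lower, against 148 and 284 with all arrays. With 1 replicate left out the sign has to hold on 2 arrays only, a looser rule, so these counts are not like for like. With the sign of replicate 2 turned ACADM had -0.03, FABP5 -0.15 and ANGPTL4 0.24, and 167 probes of that kind were lower. Normexp and loess on replicates 1 and 3 gave 92 lower and 146 higher ones. The deposited values of these 2 arrays gave 645 lower and 400 higher ones. Leaving out the dimmest 25% of probes gave 87 higher and 149 lower, fewer probes being tested there. The cause of the other shifts was not tested. With 1 replicate left out, the median of beta-oxidation without the members ran from 0.03 to 0.21. That of all the lists around the members, the members taken out, ran from 0.03 to 0.08. Of 46 alternatives other than leaving out a replicate, for the member values, the counts and these medians, 39 stayed within the spread between arrays or within 1.5 times the count. Averaging a gene's probes could change nothing for the members with 1 probe, nor for HADHA minus HADHB. Centring could move values little, the array medians being -0.015, 0.021 and 0.017. The 39 thus include settings that could hardly have moved a value. The spread of HADHA, an SD of 0.99, and of HADHB, 0.90, was wide. Their means of -0.27 each with replicate 2 turned therefore counted among the 39, though the sign had changed from 0.21 and 0.29. Normexp and loess on replicates 1 and 3 likewise gave -0.04 and -0.06. The deposited values of the same arrays, without replicate 2, already gave -0.05 and 0.01. Each array holds a frozen and a vitrified sample, so the test of their log2 ratio against 0 is itself a paired analysis. The ANGPTL4 probe, the dimmest, had 0.16 on replicate 1 after normexp and loess, which change background and normalization together, against 0.60 as deposited.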
